A study of Mus musculus with 12 samples.

Results

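The small leucine-rich proteoglycans and versican are secreted matrix proteins, and the transcripts of 10 of them were followed here across cultures of 3T3 cells, a mouse fibroblast line. The genes are decorin (Dcn), biglycan (Bgn), asporin (Aspn), fibromodulin (Fmod), lumican (Lum), prolargin (Prelp), osteomodulin (Omd), keratocan (Kera), osteoglycin (Ogn) and versican (Vcan). They were taken by gene symbol from 32544 genes in the deposited table, and each symbol was found once. The 4 groups of 3 libraries were untreated cells and cells exposed for 24 h to extracellular vesicles (EVs) released by human MDA-MB-468 breast cancer cells. EVs came from control donors (shCon), from donors with a knockdown of the cell-surface protein CRIPTO (shCr) or from donors overexpressing it (CrOE). All recipient cells were the same line, and an EV-free vehicle control was not analysed here. The labels do not say whether replicates were separate cultures, so p-values measure only the spread between these libraries, which may be technical.

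Small leucine-rich proteoglycans have a core of leucine-rich repeats that binds collagen and growth factors. Most carry chondroitin or dermatan sulfate chains (decorin and biglycan) or keratan sulfate chains (lumican, fibromodulin, keratocan and osteomodulin), and they steer how collagen fibrils assemble and how thick they grow. Versican belongs to a different family, the hyalectans, which bind hyaluronan through one end of the core protein and hold water in loose, provisional matrix. Fibroblasts are a main source of decorin, biglycan and versican in connective tissue.

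Totals were 25960054 to 37774020 estimated counts per library, and replicates correlated at 0.986 to 0.994 across genes, which are not independent replicates. The shCr EV library of replicate 1 stood apart from its group on the third principal component, so results that change without it are given both ways. Summed levels of 10 fibroblast markers were 19846 to 21406 counts per 1000000 (CPM) in untreated libraries, 24610 to 24924 after shCon EVs, 15570 to 17589 with shCr EVs and 8486 to 8854 with CrOE EVs. All 10 were detected and passed the filter on low counts. Against untreated cells, 3 were called higher and 4 lower after shCon EVs (18.0% and 20.2% of all genes). With shCr EVs these counts were 1 and 7 (18.4% and 18.8%), and with CrOE EVs 0 and 9 (36.7% and 37.0%). The sums weigh the most abundant genes most, such as Fn1, at 4147 CPM in untreated cells and 7237 after shCon EVs. In bulk RNA, fewer cells of a type and less RNA per cell cannot be told apart. Epithelial markers, those of the donor cell type, summed to 1.00 to 1.95 CPM in untreated, shCon EV and shCr EV libraries and to 2.39 to 3.43 CPM with CrOE EVs, with Epcam at 0 in every library. Of 3 tested genes, 2 were called higher with CrOE EVs against untreated cells, beside 36.7% of all genes. Cldn4 had 0 counts in untreated libraries and 36 to 40 with CrOE EVs, the group through which it was tested. Krt18 averaged 0.346 CPM in untreated cells and 0.849 with CrOE EVs, and Krt19 0.942 and 0.621. Endothelial markers summed to 0.589 to 0.769 CPM in untreated libraries and 2.25 to 2.56 with CrOE EVs, with Cldn5 at 0. There 3 of 3 tested genes were called higher, beside 36.7% of all genes. Muscle markers summed to 0.989 to 1.72 and 0.225 to 0.378 CPM, with 2 of 2 tested genes called lower, beside 37.0% of all genes. The part of these marker shifts in the results was not tested.

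Promoter sequence was taken from RefSeq (GRCm38.p6), which matched 8 of the 10 genes, as the 250 bases before the transcript start. The deposited counts are on another build, so these positions belong to the RefSeq table only. The promoters of Bgn, the most abundant member, and of Aspn and Omd, neighbours on chromosome 13 whose changes with CrOE EVs differed in size, are shown for comparison. Each is printed 5′ to 3′ on the plus strand, which is the strand of the gene. Capitals mark matches, on either strand, to the 4 motifs spelled out under them.
Bgn at chrX:73483351-73483600: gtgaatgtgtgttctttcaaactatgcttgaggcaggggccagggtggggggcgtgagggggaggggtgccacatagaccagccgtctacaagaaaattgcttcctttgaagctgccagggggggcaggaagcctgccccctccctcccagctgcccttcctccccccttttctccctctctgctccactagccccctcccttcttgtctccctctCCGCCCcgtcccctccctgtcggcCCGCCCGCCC
Aspn at chr13:49544193-49544442: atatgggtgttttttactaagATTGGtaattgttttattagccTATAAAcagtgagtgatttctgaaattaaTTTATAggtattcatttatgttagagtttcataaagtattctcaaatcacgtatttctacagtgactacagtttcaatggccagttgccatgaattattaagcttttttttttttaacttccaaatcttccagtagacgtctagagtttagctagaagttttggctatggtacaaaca
Omd at chr13:49582212-49582461: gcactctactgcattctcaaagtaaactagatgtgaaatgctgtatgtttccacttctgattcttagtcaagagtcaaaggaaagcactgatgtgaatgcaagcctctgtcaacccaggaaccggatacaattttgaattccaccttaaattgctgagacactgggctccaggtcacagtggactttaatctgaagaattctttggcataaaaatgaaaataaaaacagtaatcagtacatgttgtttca
The Bgn promoter was 64.4% G and C and held 3 matches to the GC box, spelled GGGCGG, all on the opposite strand, at -34 to -29, -10 to -5 and -6 to -1 from the start, the last pair overlapping. GC boxes were found in 32.7% of 32851 promoters of this length. The Aspn promoter was 30% G and C. It matched the TATA-box letters, taken as TATAAA, on the same strand at -207 to -202 and on the opposite strand at -178 to -173. A match to the CCAAT box lay on the opposite strand at -229 to -225. The first of these motifs was found in 12.4% and the second in 33.9% of promoters. No searched motif was present in these 250 bases of Omd, which were 38.4% G and C, and AP-1 sites, searched as TGANTCA and found in 6.75% of promoters, were in none of the 3. These are matches of letters and not tested sites.

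To compare genes with each other, CPM was divided by the kilobases of exon of each gene (GENCODE M21 on GRCm38, so approximate for these counts). Biglycan dominated every group. It stood at 637 ± 19.5 CPM per kb in untreated cells (SD, n = 3), and held 78.2% ± 1.52 of the members' summed level per kb, 83.1% ± 0.849 after shCon EVs, 73.3% ± 4.70 with shCr EVs and 84.9% ± 1.46 with CrOE EVs. In untreated cells decorin followed at 93.5 ± 5.87 CPM per kb, then versican at 52.2 ± 8.13, osteoglycin at 15.5 ± 2.98 and prolargin at 8.02 ± 0.425.
With CrOE EVs the order of the next places changed. Versican stood at 35.9 ± 3.80 CPM per kb, above decorin at 8.62 ± 1.06. Decorin's share of the summed level was 11.5% in untreated cells and 2.51% with CrOE EVs, and versican's was 6.40% and 10.5%. Asporin, at 4.46 CPM per kb, was then above osteoglycin at 2.51. The rank order was the same with the length of the longest coding transcript, except that Ogn and Vcan traded places after shCon EVs. Without correction for length, the members summed to 5275 ± 229.6 CPM in untreated cells, 4530.2 ± 40.2 after shCon EVs, 3270.4 ± 36.0 with shCr EVs and 2367 ± 118 CPM with CrOE EVs, and biglycan makes up most of these sums.

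**Figure D1:**
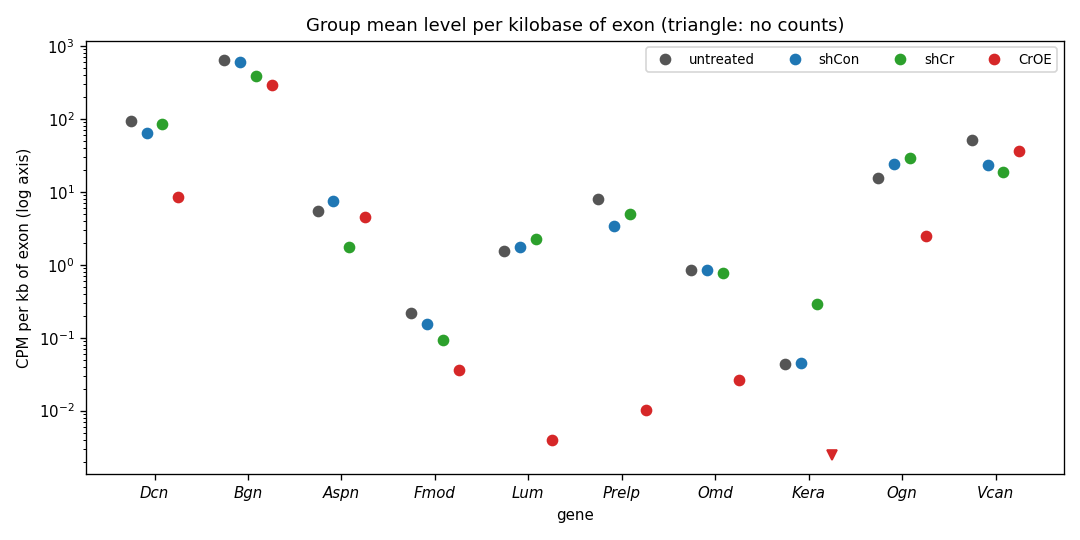
Group mean level of the 10 genes in CPM per kilobase of exon, on a log axis, with a point for each of the 4 groups and a triangle for Kera, which had no counts with CrOE EVs. Biglycan is highest in all 4 groups, at 637 CPM per kb in untreated cells and 292 with CrOE EVs, and versican is above decorin only with CrOE EVs.

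Class I members are decorin, biglycan and asporin. Decorin, which coats collagen fibrils and binds TGF-beta, was 585, 526 and 526 CPM in untreated libraries, 383, 374 and 349 after shCon EVs, 597, 459.7 and 431 with shCr EVs, and 47.1, 57.5 and 46.5 with CrOE EVs. The CrOE EV libraries were far below all the rest, and the shCr EV libraries spanned the untreated ones. In edgeR's quasi-likelihood fit Dcn fell by 3.44 on the log2 scale with CrOE EVs against untreated cells (SE 0.13, Benjamini-Hochberg adjusted p = 5.03e-11), a 10.8-fold lower level. Against shCon and shCr EVs it was 7.33-fold and 9.85-fold lower.
Dcn fell by 0.56 after shCon EVs (SE 0.11, edgeR adjusted p = 0.00179), with no overlap of libraries. With shCr EVs the log2 difference from untreated cells was -0.14 (edgeR adjusted p = 0.367). It became -0.30 (adjusted p = 0.01) without replicate 1 of the shCr EV group, the highest Dcn library of that group. Dcn was higher after shCr than after shCon EVs by 0.43 (edgeR adjusted p = 0.0365). That call was lost without any single shCon EV library (adjusted p = 0.0893 to 0.14), without shCr EV replicate 1 (0.061) or when only these groups were modelled (0.0999).

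Biglycan, a close relative of decorin that also acts as a ligand of Toll-like receptors when released from matrix, was 3833, 3801 and 4021 CPM in untreated libraries and 3722, 3669 and 3786 after shCon EVs. It was 2226, 2501 and 2467 CPM with shCr EVs and 1640.0, 1874 and 1825 with CrOE EVs. The groups formed 3 levels, with untreated and shCon EV libraries at the top, shCr EV libraries in the middle and CrOE EV libraries lowest. Bgn fell by 0.70 with shCr EVs (SE 0.06, edgeR adjusted p = 1.91e-06) and by 1.13 with CrOE EVs (SE 0.06, adjusted p = 2.43e-09), and after shCon EVs the log2 difference was -0.06 (adjusted p = 0.465). It was lower after shCr than after shCon EVs, with a log2 difference of -0.64 (SE 0.06, edgeR adjusted p = 4.81e-05), and lower after CrOE than with shCr EVs, at -0.43 (SE 0.06, adjusted p = 2.73e-05). Between shCon and shCr EVs, decorin was thus lower and biglycan higher after shCon EVs, though decorin's call was lost in the alternatives given above.

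Asporin, which has an aspartate-rich stretch and no glycosaminoglycan chain, was 15.6, 6.98 and 16.5 CPM in untreated libraries and 18.0, 18.3 and 16.1 after shCon EVs. It was 6.35, 3.27 and 2.60 CPM with shCr EVs and 10.4, 9.75 and 11.4 with CrOE EVs. The shCr EV libraries were below all others, and untreated replicate 2 lay far below the other untreated libraries. Aspn fell by 1.70 with shCr EVs against untreated cells (SE 0.32, edgeR adjusted p = 0.0011) and differed by -2.13 between shCr and shCon EVs (SE 0.32, adjusted p = 0.00129). It was the only member not called between CrOE EVs and untreated cells, at -0.31 (edgeR adjusted p = 0.356), and it became -0.61 (adjusted p = 0.033) without untreated replicate 2. With CrOE EVs it was 2.63-fold higher than with shCr EVs (edgeR adjusted p = 0.00164). The difference between CrOE and shCon EVs, -0.73 (edgeR adjusted p = 0.037), was lost when any 1 of the 6 libraries was left out (adjusted p = 0.0542 to 0.101).

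**Figure D2:**
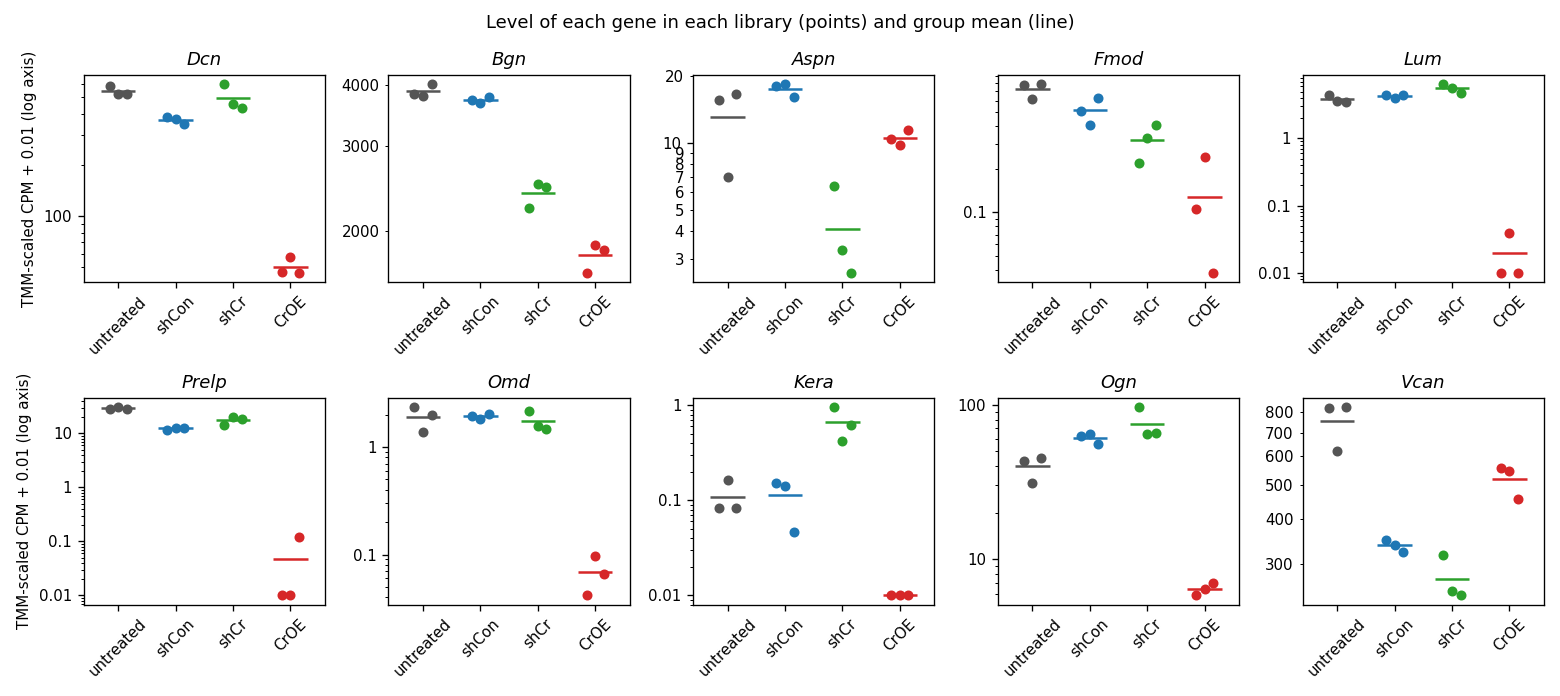
Level of each gene in the 12 libraries as TMM-scaled CPM plus 0.01, on log axes that differ between panels, with a point for each library and a line for the group mean. The CrOE EV libraries are lowest for Dcn, Bgn, Lum, Prelp, Omd, Kera and Ogn, whereas Aspn and Vcan are lowest with shCr EVs.

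Class II members are fibromodulin, lumican, prolargin, osteomodulin and keratocan. Lumican, which limits the thickness of collagen fibrils and keeps the cornea clear, was 4.47, 3.58 and 3.42 CPM in untreated libraries, 4.37, 3.98 and 4.40 after shCon EVs and 6.42, 5.70 and 4.66 with shCr EVs. With CrOE EVs it had 0, 1 and 0 counts. The CrOE EV libraries were near 0 and the other 9 libraries all lay above 3 CPM. Summed counts were 389-fold lower with CrOE EVs than in untreated cells (95% counting interval 69.2 to 15396), a call by edgeR (adjusted p = 8.3e-10). Against shCon EVs they were 431-fold lower (76.8 to 17052) and against shCr EVs 559-fold lower (99.9 to 22126). These ratios rest on 1 count in CrOE EV replicate 2. Without that library the level was at least 85.7-fold, 94.9-fold and 123-fold lower than in untreated, shCon EV and shCr EV cells, taking 3 counts over the group as the detection floor. Counting intervals cover counting error only, since copies made by PCR were not told apart from molecules. Lum rose by 0.54 with shCr EVs (SE 0.16, edgeR adjusted p = 0.0181), a call that was lost without untreated replicate 2 (0.0511) or 3 (0.0808) or shCr EV replicate 2 (0.052).

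Prolargin, which anchors basement membrane to the collagen beneath it, was 28.3, 30.8 and 28.0 CPM in untreated libraries, 11.6, 12.5 and 12.8 after shCon EVs and 14.2, 20.3 and 18.8 with shCr EVs. The groups did not overlap, and Prelp was called in all 6 comparisons. With CrOE EVs it had 0, 0 and 4 counts. Summed counts were 735-fold lower than in untreated cells (95% counting interval 287 to 2701), and edgeR's adjusted p was 2.61e-11. Without CrOE EV replicate 3, which holds all 4 counts, the level was at least 636-fold lower, with the same floor. Prelp also fell by 1.23 after shCon EVs (SE 0.15, edgeR adjusted p = 3.74e-05) and by 0.70 with shCr EVs (SE 0.15, adjusted p = 0.00211). The difference of 0.53 between shCr and shCon EVs (edgeR adjusted p = 0.0474) was lost without any 1 shCon EV library (0.121 to 0.18), without shCr EV replicate 2 (0.148) or 3 (0.0963), with only these groups modelled (0.0783) and with median-of-ratios scaling (0.0504). In the annotation, 9.68% of Prelp's exon bases overlap Gm15851 on the opposite strand. Whether counting used strand is not given in the sources used here, so reads of the 2 genes may not be separated there.

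Osteomodulin, a keratan sulfate proteoglycan of mineralised tissue, was 2.34, 1.37 and 1.99 CPM in untreated libraries, 1.93, 1.83 and 2.02 after shCon EVs and 2.15, 1.57 and 1.46 with shCr EVs. With CrOE EVs it had 1, 3 and 2 counts. Untreated, shCon EV and shCr EV libraries overlapped, and no pair of them was called. Summed counts were 32.3-fold lower with CrOE EVs than in untreated cells (95% counting interval 14.5 to 89.3, edgeR adjusted p = 5.83e-08). Of the 31-base stretches of Omd transcripts, 5.43% also occur in another gene, which is the largest share among the members.

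Fibromodulin, which binds fibrillar collagen as lumican does, was near the limit of this depth. It had 21, 16 and 21 counts in untreated libraries, 14, 12 and 17 after shCon EVs, 6, 10 and 15 with shCr EVs and 3, 8 and 1 with CrOE EVs. The CrOE EV libraries were below all untreated and shCon EV libraries but overlapped the shCr EV ones. Fmod reached the cutoff of the low-count filter in 3 untreated, 3 shCon EV, 1 shCr EV and 0 CrOE EV libraries. It was thus tested through the groups where it is high. Fmod fell by 2.56 with CrOE EVs (SE 0.46, edgeR adjusted p = 0.000239), a 5.90-fold lower level than in untreated cells. It also fell by 1.17 with shCr EVs (SE 0.39, edgeR adjusted p = 0.0325), a call lost without untreated replicate 1 (0.0855) or 3 (0.0926) or shCr EV replicate 1 (0.0765) or 2 (0.0779). The difference of -1.39 between CrOE and shCr EVs (edgeR adjusted p = 0.0265) was lost without shCr EV replicate 2 (0.0552) or 3 (0.106) or CrOE EV replicate 1 (0.0762) or 3 (0.102).

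Keratocan, a corneal member of the family, had 2, 4 and 2 counts in untreated libraries, 4, 4 and 1 after shCon EVs, 27, 13 and 23 with shCr EVs and 0 in each CrOE EV library. Only the shCr EV libraries had more than 4 counts. It passed the low-count filter through the shCr EV libraries alone, so a difference from them was built into its being tested. The ratio of summed counts was 6.53 between shCr EVs and untreated cells (95% counting interval 3.12 to 15.8, edgeR adjusted p = 0.00218) and 6.17 between shCr and shCon EVs (3.05 to 14.1, adjusted p = 0.0104). The call between shCr and shCon EVs was lost without shCon EV replicate 3 (0.0503). Against shCr EVs the level with CrOE EVs was at least 21.9-fold lower, and against untreated cells at least 3.35-fold lower.

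Osteoglycin, the class III member, is a small proteoglycan of bone, cornea and vessel walls. It was 43.3, 31.03 and 45.1 CPM in untreated libraries, 62.7, 64.7 and 55.8 after shCon EVs, 96.3, 64.3 and 65.1 with shCr EVs and 5.84, 6.46 and 6.99 with CrOE EVs. The shCon and shCr EV libraries were above the untreated ones and the CrOE EV libraries below them. Ogn rose by 0.62 after shCon EVs (SE 0.16, edgeR adjusted p = 0.0092) and by 0.92 with shCr EVs (SE 0.16, adjusted p = 0.000636). It fell by 2.63 with CrOE EVs (SE 0.18, edgeR adjusted p = 3.19e-08), a 6.18-fold lower level than in untreated cells and an 11.7-fold lower one than with shCr EVs. Ogn was the only member called higher after shCon EVs.

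Versican was 821, 619.8 and 826 CPM in untreated libraries, 350.2, 339 and 325 after shCon EVs, 318, 251 and 245 with shCr EVs and 556, 546 and 456 with CrOE EVs. Untreated libraries were highest and CrOE EV libraries stood between them and those of the other EV groups, with no overlap. Vcan fell by 1.16 after shCon EVs (SE 0.12, edgeR adjusted p = 1.29e-05), by 1.48 with shCr EVs (SE 0.13, adjusted p = 1.44e-06) and by 0.54 with CrOE EVs (SE 0.12, adjusted p = 0.00145). It was 1.54-fold higher after CrOE than after shCon EVs (edgeR adjusted p = 0.00054) and 1.92-fold higher than with shCr EVs (adjusted p = 1.48e-05). The difference of -0.32 between shCr and shCon EVs was not called (edgeR adjusted p = 0.144) and became -0.45 (0.022) without shCr EV replicate 1. Counts are per gene symbol, so versican's splice forms could not be told apart.

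**Figure D3:**
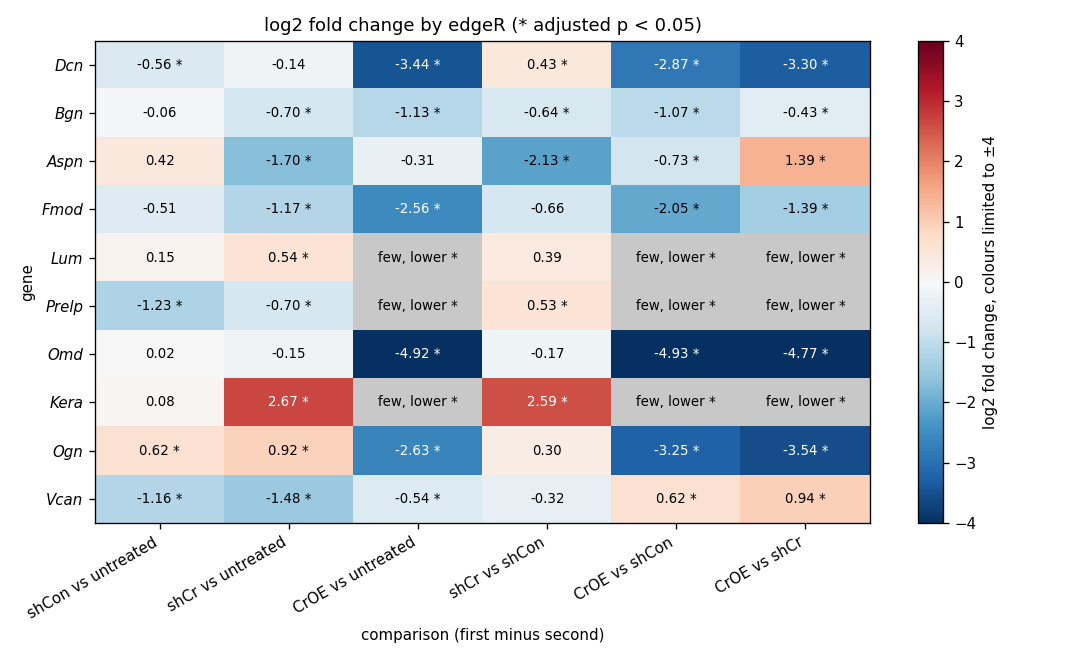
Log2 fold changes of the 10 genes in the 6 comparisons, coloured by direction and size, with calls marked and grey cells where the CrOE EV group has 4 or fewer counts in all. In the column of CrOE EVs against untreated cells 9 genes are called lower and Aspn is not called.

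Against untreated cells, 4 of the 10 genes were called for shCon EVs, where 38.1% of all 14279 tested genes were called. Ogn was the 1 called higher, beside 18.0% of all genes, and Dcn, Prelp and Vcan were lower, beside 20.2%. For shCr EVs 8 were called, against 37.3% of all genes. Kera is 1 of them, and it was tested only because the shCr EV libraries were high, so its call is not set beside that share. Of the other 9 members 7 were called, Lum and Ogn higher (18.4% of all genes) and Bgn, Aspn, Fmod, Prelp and Vcan lower (18.8%). Fmod was tested through the untreated and shCon EV libraries, where it is higher than with shCr EVs. For CrOE EVs 9 were called and all 9 were lower, while 73.7% of all genes were called (36.7% of all genes higher and 37.0% lower). Kera, Fmod, Lum, Prelp and Omd reached the filter's cutoff in no CrOE EV library, so each was tested only through other groups, where it is higher.
In the same order of EV groups, the members' median log2 fold changes were -0.02, -0.42 and -3.03 (-2.59 in the last with Kera at its bound), beside medians over all genes of 0.0069, 0.020 and 0.0078. These comparisons share the untreated libraries. Calls of at least 2-fold numbered 2, 4 and 8 members (2, 3 and 7 without Kera), where 6.04%, 6.28% and 29.7% of all genes had them. The libraries of both groups did not overlap for 5, 8 and 9 members (5, 7 and 8 without Kera), against 54.2%, 41.9% and 77.7% of all genes.

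Between EV groups, 5 members were called for shCr against shCon EVs, where 8.73% of all genes were called. Kera is again among them through the filter on low counts, and 4 of the other 9 were called. Dcn and Prelp were higher (5.22% of all genes) and Bgn and Aspn lower (3.51%) with shCr EVs. With Kera counted, leaving out a shCon EV library gave 3 calls (without replicate 1 or 2) or 2 (without replicate 3). Dcn and Prelp lost their calls each time, so Bgn and Aspn were the calls left apart from Kera. Kera aside, the 1 call of at least 2-fold was Aspn, beside 0.756% of all genes, and 7 of 9 members did not overlap, beside 28.0%.
For CrOE against shCon EVs all 10 were called, against 72.6% of all genes, with Vcan higher (36.5%) and 9 lower (36.1%). Kera had 9 counts after shCon EVs and 0 with CrOE EVs and reached the filter's cutoff in neither group. Without Kera, 9 of 9 were called, 1 higher and 8 lower. The Aspn call was lost when any 1 of the 6 libraries was left out. For CrOE against shCr EVs all 10 were called as well. Kera was tested only through the shCr EV libraries, and without it 9 of 9 were called, against 73.9% of all genes. Of these, Aspn and Vcan were higher (36.9%) and 7 lower (37.0%). At 2-fold or more 8 members were called in each (7 without Kera), beside 27.2% and 29.6% of all genes. No overlap was seen for 10 and 9 members (9 and 8 without Kera), beside 80.5% and 74.0%. Both comparisons share the CrOE EV libraries.

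Untreated replicate 2 was the lowest of its group for Aspn, Omd, Ogn, Vcan, Fmod and Bgn and the highest for Prelp and Kera. Its log2 deviations from the group mean ran from -0.80 for Aspn to 0.43 for Kera, which had 4 counts there. The shCr EV library of replicate 1 was the highest of its group for Dcn, Aspn, Lum, Omd, Kera, Ogn and Vcan and the lowest for Bgn, Fmod and Prelp. Its deviations ran from 0.74 for Aspn to -0.41 for Fmod. What set these libraries apart was not tested.

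Most members lie beside each other in the genome. In the RefSeq gene order, Optc, Prelp and Fmod are adjacent on chromosome 1, Dcn, Lum, Kera and Epyc on chromosome 10, and Ecm2, Aspn, Omd and Ogn on chromosome 13. On chromosome 10, Dcn was 10.8-fold lower with CrOE EVs, Lum was down to 1 count in 3 libraries and Kera was at 0. Epyc, which encodes epiphycan, averaged 0.0376 CPM in untreated cells and was not tested.
On chromosome 13 the changes with CrOE EVs differed in size. Omd was 32.3-fold and Ogn 6.18-fold lower, whereas Aspn between Ecm2 and Omd was at -0.31 on the log2 scale and not called. Without untreated replicate 2, Aspn was called lower too. Aspn shares 7 exon bases, 0.297% of its exons, with Cenpp on the opposite strand. Ecm2, an extracellular matrix protein with leucine-rich repeats, was 1.08 ± 0.0228 CPM in untreated cells and 0.305 ± 0.067 with CrOE EVs, and fell by 1.81 on the log2 scale (edgeR adjusted p = 0.000128).
With shCr EVs the chromosome 13 neighbours again differed, with Aspn lower, Ogn higher and Omd not called. On chromosome 1, Prelp was down to 4 counts in 3 libraries with CrOE EVs and Fmod was 5.90-fold lower. Optc, which encodes opticin of the eye, was 0.434 ± 0.0596 and 0.149 ± 0.133 CPM, and its call (-1.53, edgeR adjusted p = 0.0215) was lost without untreated replicate 2 (0.0504) or 3 (0.0586) or CrOE EV replicate 1 (0.061) or 3 (0.0741). Differences between neighbours in their response were not tested.

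**Figure D4:**
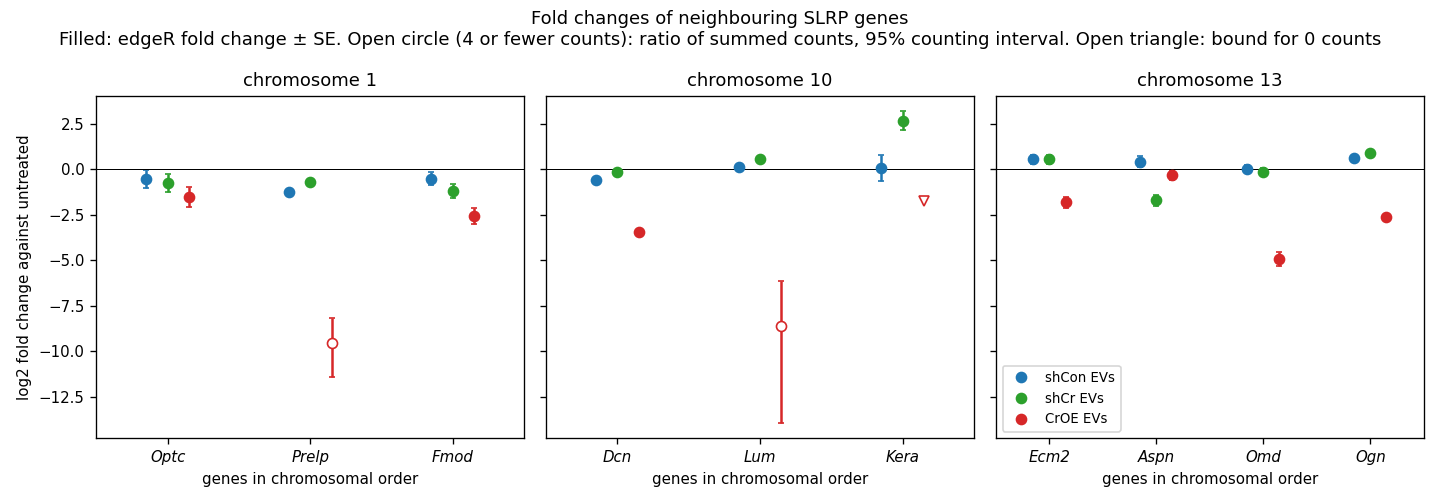
Log2 fold change against untreated cells for the members and their tested family neighbours in chromosome order, with edgeR's value and its SE as filled points for the 3 EV groups, and with ratios of summed counts and their 95% counting intervals (open circles) or a bound (open triangle) where few counts were left. With CrOE EVs, Aspn lies at -0.31 between Ecm2 at -1.81 and Omd at -4.92.

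The counts for the gene lists that follow stand beside shares over all genes of 36.7% higher and 37.0% lower with CrOE EVs, 18.0% and 20.2% with shCon EVs, and 18.4% and 18.8% with shCr EVs. Of the other small leucine-rich proteoglycan genes, 8 of 9 were tested. With CrOE EVs 2 rose and 4 fell, 6 of 8 called beside 73.7% of all genes, with a median log2 fold change of -1.29. Nyx, which encodes nyctalopin, a protein of retinal bipolar cells, averaged 3.25 ± 0.492 CPM in untreated cells, 8.15 ± 0.414 after shCon EVs, 13.4 ± 1.52 with shCr EVs and 21.2 ± 2.98 with CrOE EVs, and it rose by 2.70 with CrOE EVs (edgeR adjusted p = 1.38e-09). Podnl1, a podocan-like member, was 24.2 ± 1.08 CPM in untreated cells and 1.84 ± 0.246 with CrOE EVs, and fell by 3.71. Podn, podocan, averaged 3.43 ± 0.229 CPM in untreated cells, 6.22 ± 0.375 after shCon EVs and 0.321 ± 0.117 with CrOE EVs. Like Ogn, it rose after shCon EVs (0.86, edgeR adjusted p = 0.00046) and fell with CrOE EVs (-3.39). Tsku, tsukushi, rose by 0.29 with CrOE EVs.

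Among 7 other hyalectans and hyaluronan link proteins only Hapln4 passed the filter, at 18.5 CPM in untreated cells and 22.4 with CrOE EVs. Hapln1, the link protein gene next to Vcan, averaged 0.0983 CPM or less in untreated, shCr EV and CrOE EV cells and 0.103 CPM after shCon EVs.

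The chains of these proteoglycans are built by enzymes that were tested gene by gene and counted by list, with no test of a list as a whole. Of 21 tested genes of the linker and of chondroitin and dermatan sulfate, 14 fell (37.0% of all genes did) and 4 rose (36.7%) with CrOE EVs, with a median of -0.55. Dse, the epimerase that makes dermatan sulfate, fell by 1.03, and Chpf, a chondroitin polymerising factor, rose by 0.27. After shCon EVs 6 rose and 3 fell, and with shCr EVs 7 rose and 2 fell. Of 6 tested keratan sulfate genes, 3 fell and 1 rose with CrOE EVs, beside 37.0% and 36.7% of all genes, and 2 were not called. The extension enzyme B3gnt2 was the gene that rose (0.84).
Of 8 tested genes of sulfate and sugar supply, 4 fell and 3 rose with CrOE EVs, near the shares over all genes. Ugdh, which makes the UDP-glucuronate that these chains need, was 174 ± 3.67 CPM in untreated cells and 60.2 ± 1.19 with CrOE EVs, and fell by 1.53 (edgeR adjusted p = 7.13e-12). It also fell by 0.46 after shCon EVs and by 0.33 with shCr EVs.

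Among 10 tested proteases that process these proteins, 9 fell and 1 rose with CrOE EVs, beside 37.0% and 36.7% of all genes, with a median of -1.74. Adamts1, a versican-cleaving protease, was 771 ± 14.2 CPM in untreated cells, 509 ± 21.3 after shCon EVs, 605 ± 25.98 with shCr EVs and 138 ± 1.56 with CrOE EVs. Among the EV groups its mean was highest with shCr EVs and lowest with CrOE EVs, and that of Vcan ran the other way. Vcan was not called between shCr and shCon EVs, and a link between the 2 transcripts was not tested. Mmp2, a gelatinase that also cleaves decorin, rose by 1.26 after shCon EVs and by 1.06 with shCr EVs and fell by 2.36 with CrOE EVs (edgeR adjusted p = 9.41e-13).
Of 9 fibrillar collagen genes, the fibrils these proteoglycans coat, 6 fell and 2 rose with CrOE EVs, beside 37.0% and 36.7% of all genes. After shCon EVs 5 rose and 0 fell, beside 18.0% and 20.2%. With shCr EVs 4 fell, and 7 were called without shCr EV replicate 1. Of 9 receptors for these proteoglycans or hyaluronan, 8 fell and 1 rose with CrOE EVs, beside 37.0% and 36.7% of all genes. Tlr2, a receptor for biglycan, fell by 1.61, and Lrp1, which takes up decorin, fell by 1.59. Cd44, a hyaluronan receptor, fell by 0.33.

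**Figure D5:**
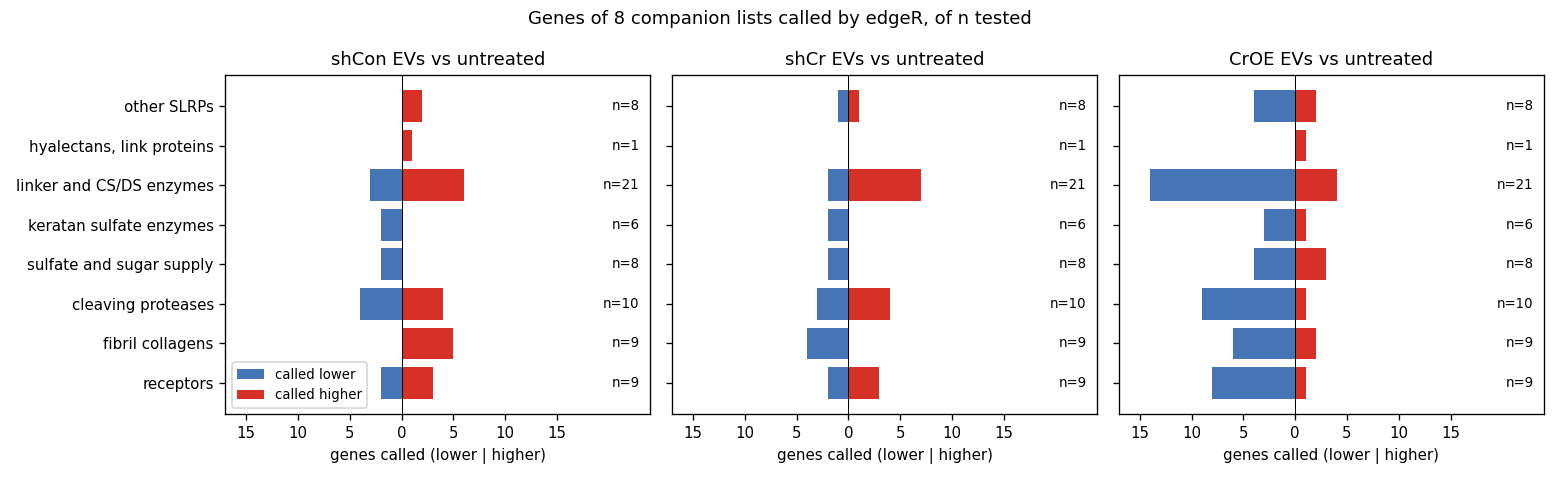
Number of genes called higher (right) and lower (left) against untreated cells in each of 8 gene lists, with the number tested beside each bar, for the 3 EV groups. With CrOE EVs 14 of 21 linker and chondroitin or dermatan sulfate enzymes, 9 of 10 proteases and 8 of 9 receptors are on the lower side. Other family genes have 4 lower and 2 higher, keratan sulfate enzymes 3 and 1, supply genes 4 and 3, and fibrillar collagens 6 and 2. The 1 tested link protein gene is higher. Over all genes, 37.0% were called lower and 36.7% higher with CrOE EVs.

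By Pearson correlation of log2 CPM over the 12 libraries, among 9766 genes averaging 3 or more on the log2 CPM scale, the gene most like Dcn was Scara5 (0.998). Tgfbi was most like Bgn (0.993), Cd82 most like Lum (0.999), Ptk2b most like Prelp (0.999), Ctps2 most like Omd (0.996) and Npy1r most like Ogn (0.998). The points share their groups, and the CrOE EV libraries stand far from the other 9. Likeness was lower for Aspn, whose nearest gene was Ldlrad4 (0.913), for Fmod with Sec16b (0.941) and for Kera with Cox17 (0.961). Vcan was nearest to Slc25a13 (0.987), Smc2 (0.982) and Mad2l1 (0.977).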

How the data were processed

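Bulk RNA from 12 libraries of 3T3 cells was sequenced from poly(A)-selected, directional libraries, per the labels' protocols. Values deposited by the authors were taken as estimated counts for each gene symbol and library, because 39.8% of them were not whole (tolerance 1e-09) and column totals differed. The submitters' processing notes name featureCounts and mm39, without role or version. The aligner, annotation and strand setting are not given in the sources used here. The 3 columns that carry only the protein's name were assigned to CrOE by elimination, and that group's name rests on this.

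Counts were rounded to whole numbers, since the test needs them, although raw counts had been planned for. filterByExpr kept 14279 genes, including all 10 members, TMM scaled the libraries, and edgeR 4.0.16 (R 4.3.3) fitted a quasi-likelihood model of all 12 libraries with a mean per group. P-values were adjusted by Benjamini-Hochberg over all tested genes, and an adjusted p under 0.05 was a call. CPM are TMM-scaled. A group with 0 counts was set to a floor of 3 counts over the group, and counting intervals are at 95%. The test was run on simulated counts with the same dispersion for every gene and no changes placed among the least abundant genes. That check does not cover changes in such genes or libraries that stand apart from their group.

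Alternatives were median-of-ratios scaling, DESeq2 1.42.0, no filter, at least 10 counts in every library, a replicate block, each library left out, only the groups compared, and at least a 2-fold change. Bounds for Prelp without CrOE EV replicate 3 and for Lum without CrOE EV replicate 2, counts without Kera and the longest coding transcript as gene length were added after seeing the data. The genes named were all members, the 4 most abundant tested genes of each list (some not printed), family neighbours, and the genes most like a member. The members and lists were chosen with earlier results of these data known. Other marker lists, as summed CPM over untreated, shCon, shCr and CrOE EV libraries, were chondrocyte 41.5 to 45.9, 47.0 to 50.0, 36.6 to 50.5 and 20.9 to 25.2; adipocyte 34.4 to 40.4, 19.7 to 20.0, 19.4 to 25.2 and 3.77 to 4.27; macrophage 8.09 to 11.4, 8.83 to 10.3, 8.14 to 10.7 and 3.96 to 5.48. Endothelial markers were 1.18 to 1.26 and 0.961 to 1.59, and muscle markers 0.716 to 1.37 and 0.954 to 1.25, with shCon and shCr EVs (others in the report).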

Additional observations from a re-analysis of the deposited data

How the results depend on the processing

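Requiring at least 10 counts in every library left 5 members tested, and 4 were called for shCr EVs and 4 for CrOE EVs against untreated cells, 3 for shCr against shCon EVs, 5 for CrOE against shCon EVs and 5 for CrOE against shCr EVs; fewer genes tested is part of that alternative. Requiring at least a 2-fold change left 2 members for shCon and 4 for shCr EVs against untreated cells and 2 for shCr against shCon EVs. Modelling only the groups compared left 3 for shCr against shCon EVs. Leaving out each library in turn gave 4 to 4, 6 to 8 and 9 to 10 called members for shCon, shCr and CrOE EVs against untreated cells, 2 to 5 for shCr against shCon EVs, 9 to 9 for CrOE against shCon EVs and 9 to 10 for CrOE against shCr EVs. Replicate numbers share only a number (18 same-numbered pairs, r -0.20 to 0.32, 5 above 0.1); the replicate block called 4, 8, 9, 5, 10 and 10 members in the 6 comparisons, as without it.

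Of 685 alternative values of single members, 645 kept direction and call, 30 lost a call, 3 gained one and 7 reversed, all of them uncalled. With single libraries left out, Omd ran from -0.17 (untreated replicate 2) to 0.18 and Kera from -0.19 (shCon EV replicate 1) to 0.49 for shCon EVs against untreated cells, Omd also reaching -0.018 and Kera -0.11, -0.097 and -0.14, and Omd ran from -0.34 to 0.015 for shCr EVs. The cause was not tested. DESeq2 gave no adjusted p for Kera between shCr and shCon EVs. Over the gene lists, 507 counts stayed within 1.5 times and 69 did not. Depth limits Fmod, Kera and, after CrOE EVs, Lum, Prelp and Omd.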
